A study of Mus musculus with 14 samples.

Results

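The 10 genes described here are core genes of the Notch pathway, measured in liver sinusoidal endothelial cells (LSECs), the fenestrated endothelial cells that line the sinusoids of the liver. They were picked by name, with earlier results of these data known. The list holds 4 genes for ligands (Dll1, Dll4, Jag1 and Jag2) and 2 for receptors (Notch1 and Notch4). It also holds 3 target genes (Hes1, Hey1 and Heyl) and 1 gene for the DNA-binding partner of the cleaved receptor (Rbpj). All 10 were found among the 54524 genes of the count matrix, and all 10 were among the 26626 genes that passed the filter on low counts.

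Notch receptors sit in the cell membrane and are activated by ligands of the Delta-like (Dll) and Jagged (Jag) families on a neighbouring cell. Binding leads to cleavage of the receptor, and the freed intracellular domain enters the nucleus, where it joins Rbpj and turns on target genes such as the Hes and Hey transcriptional repressors. In endothelium the pathway is known for tip and stalk cell selection during sprouting and for arterial identity, and in the liver it is also known for its part in endothelial differentiation and in bile duct formation.

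LSECs came from male Balb/c mice with no genetic modification. The healthy group held 4 samples from untreated mice aged 10 to 12 weeks, which received no injection of the mineral oil vehicle. The day 1 (2 samples), day 3 (4 samples) and day 7 (4 samples) groups came from mice of the same age that received a single intraperitoneal injection of carbon tetrachloride (CCl4), a hepatotoxin that damages hepatocytes around the central vein, at 0.5 µL per g body weight in mineral oil, and the livers were taken 1, 3 or 7 days later. The injection and the vehicle therefore cannot be told apart from the CCl4 in any comparison with healthy. Libraries were made from uncultured cells of perfused livers, sorted as CD32+ F4/80- and negative for ultraviolet autofluorescence and propidium iodide; the study's methods add a gate against CD45. CD32 is the product of Fcgr2b, which is itself high in LSECs, so cells that had lost CD32 would not have been collected. The first group after injury has fewer libraries because, per the study, the RNA of its other samples was of low quality. Neither the labels nor the methods state whether a sample is a single mouse or a pool, so p-values measure the spread between these samples.

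Total counts per library ran from 46401496 to 103912264, so the level of all but the lowest members was limited by the spread between samples and not by counting. The 10 LSEC markers examined were detected in every group, with a summed level of 16313 to 19678 CPM (counts scaled to a common library size, with TMM factors) in healthy libraries, from 12416 to 15178 in the day 1 libraries, from 10504 to 14435 in those of day 3 and from 9796 to 14130 in those of day 7. Markers of other cells were present too and moved with the groups. The summed level of 11 monocyte and neutrophil markers was 40.4 to 233 CPM in healthy libraries, 6897 and 2983 CPM at day 1, 5177 and 2841 CPM in day 3 replicates 1 and 2, 154 and 103.6 CPM in day 3 replicates 3 and 4, and 202 to 348 CPM at day 7. The sum of 15 hepatic stellate cell markers was 299 to 486 CPM in healthy libraries, 251 and 216 CPM at day 1, 966 to 2800 CPM at day 3 and 631 to 7768 CPM at day 7. Day 1 had the highest sums of 6 venous endothelial markers, 2130 and 2300 CPM, against 705 to 863 CPM in healthy libraries, 542 to 1544 CPM at day 3 and 592 to 693 CPM at day 7, and of 8 arterial and portal markers, 721 and 845 CPM, against 325 to 403, 210 to 400 and 273 to 314 CPM. The sum of 8 cholangiocyte markers was 83.1 to 200.3 CPM in healthy libraries, 265 and 333 CPM at day 1, 327 to 1207 CPM at day 3 and 608 to 5263 CPM at day 7. At an adjusted p under 0.05 (edgeR), 1 of the 8 was higher at day 1, 2 at day 3 and 1 at day 7 against healthy. Their median log2 fold changes were -0.52, -0.009 and 0.40. Of all genes tested, 4.06%, 7.19% and 3.18% passed in either direction at days 1, 3 and 7. At day 1, 2 venous markers passed as higher and 1 as lower, and 1 arterial and portal marker passed as higher. A sum follows its most abundant markers, so most of its markers need not move with it. At day 1 against healthy, the median log2 fold change was 1.64 for the venous and 0.53 for the arterial and portal markers. It was 4.80 for the monocyte and neutrophil markers and -5.28 for the hepatocyte markers, of which 0 passed, beside -0.03 over all genes. For 10 hepatocyte markers the sum was 32.4 and 136 CPM at day 1, 880 to 3076 CPM at day 3 and 864 to 6654 CPM at day 7. Sums of 7 Kupffer cell markers (149 to 1228 CPM) and 8 lymphocyte markers (68.8 to 581 CPM) overlapped between healthy and each other group. The part of these cells in the results below was not tested. A pair of libraries stood apart: healthy replicate 4 had a hepatocyte marker sum of 9341 CPM against 217 to 426 CPM in the other healthy libraries, and day 3 replicate 4 had 22986 genes detected against 28203 to 34768 in the other day 3 libraries. Day 3 replicates 1 and 2, with 34678 and 34768, had the most genes detected of the series, and replicate 3 had 28203. In bulk samples such as these, fewer cells of a type and less RNA per cell cannot be told apart.

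Per kilobase of exon, Hes1 was the most abundant of the 10 genes and Jag2 and Heyl the least. The order of the group means was Hes1, Dll4, Notch1, Notch4 in each of the 4 groups. Single libraries could differ: in day 3 replicate 4, Dll4 was at 95.6 RPKM and Hes1 at 46.9 RPKM. In healthy LSECs Hes1, a target gene whose product represses transcription, stood at 227 ± 17.2 RPKM (CPM per kilobase of exon, mean ± SD, n = 4), and Dll4, the main endothelial ligand, at 73.1 ± 9.02 RPKM. The receptors followed, with Notch1 at 15.3 ± 2.38 RPKM and Notch4, whose expression is largely endothelial, at 8.22 ± 2.10 RPKM. The other members were below 5 RPKM in healthy LSECs: Dll1 at 3.98, Hey1 at 2.47, Rbpj at 1.53, Jag1 at 1.47, Heyl at 0.136 and Jag2 at 0.126 RPKM.

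**Figure D1:**
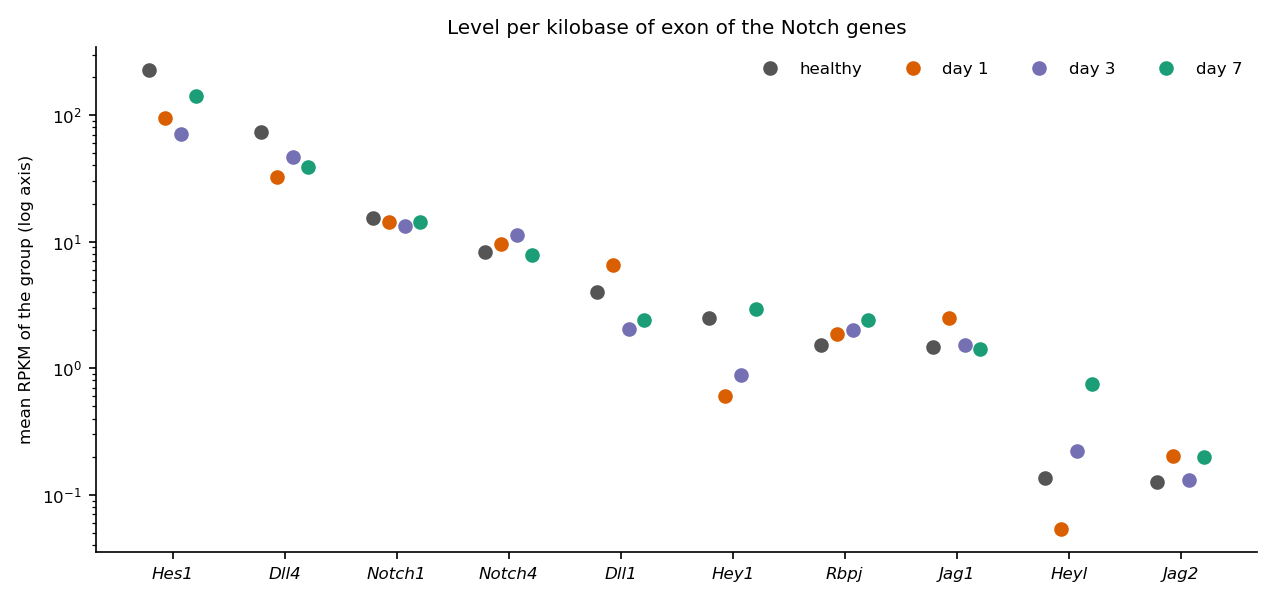
Mean RPKM (log axis) of each Notch gene in healthy LSECs (n = 4) and in LSECs 1 (n = 2), 3 (n = 4) and 7 days (n = 4) after CCl4, ordered by the healthy level; each point is a group mean. Hes1 was the highest in every group, from 70.8 RPKM at day 3 to 227 RPKM in healthy LSECs.

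Among the ligands, Dll4 made up most of the level per length. Its share of the summed RPKM of Dll1, Dll3, Dll4, Jag1 and Jag2 was 92.9% ± 0.705 (SD, n = 4) in healthy LSECs, 72.9% and 81.0% in the day 1 libraries, 80.6% to 96.6% at day 3 and 88.7% to 93.5% at day 7. Dll1 took 5.04% ± 0.377 of that sum in healthy LSECs and 14.4% and 17.8% in the day 1 libraries, where Dll4 was lower and Dll1 higher. These shares are a description and were not tested.

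Because Dll1 and Dll4 were the most abundant ligands and stood on opposite sides of their healthy levels at day 1, the starts of both genes are shown. Dll4 lies at 2:119325784-119335962 on the plus strand of GRCm38 and Dll1 at 17:15367354-15376872 on the minus strand. The promoters below are RefSeq sequences on GRCm38.p6, written 5′ to 3′ on the strand of the gene, with 250 bases before the start site in lower case and the first 50 transcribed bases in capitals. The Dll4 sequence is chr2:119325534-119325833 and the Dll1 sequence chr17:15376883-15377182, whose start site lies 60 bases upstream of the GENCODE gene start.
Dll4: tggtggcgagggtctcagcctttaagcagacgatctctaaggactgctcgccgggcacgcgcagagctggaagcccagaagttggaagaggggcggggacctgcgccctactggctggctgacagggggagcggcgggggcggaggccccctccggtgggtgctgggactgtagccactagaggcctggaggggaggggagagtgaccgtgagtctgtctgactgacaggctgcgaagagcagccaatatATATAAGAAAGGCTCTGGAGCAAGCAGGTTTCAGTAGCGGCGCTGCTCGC
Dll1: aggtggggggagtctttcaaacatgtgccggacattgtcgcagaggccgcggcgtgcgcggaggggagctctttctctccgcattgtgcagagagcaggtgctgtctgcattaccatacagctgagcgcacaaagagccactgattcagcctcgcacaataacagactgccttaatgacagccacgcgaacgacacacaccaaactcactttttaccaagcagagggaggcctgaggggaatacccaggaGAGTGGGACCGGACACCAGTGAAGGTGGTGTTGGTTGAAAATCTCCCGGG
Both are richer in GC than the median of 52.7% over the 32851 promoters of the same table, with 63.7% for Dll4 and 56.3% for Dll1. They hold 17 and 15 CpG dinucleotides, against a median of 7. A second promoter listed for Dll1, chr17:15375774-15376073, is not shown and has 62.7% GC and 24 CpG dinucleotides. The letters GTGGGAA, the core to which Rbpj binds, were searched on both strands. They occurred in 0 of the 9 promoters listed for 7 of the 10 members (Dll1, Dll4, Jag1, Jag2, Notch1, Notch4 and Rbpj) and in 6.38% of all promoters of the table, and a match or its absence in these 300 bases says nothing of binding. Promoters of Hes1, Hey1 and Heyl were not analysed here.

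Between healthy LSECs and LSECs 1 day after CCl4, the question was which Notch genes differed in the early injury. Hes1 and Hey1, both target genes, fell, and none of the 10 members was called higher. That is 2 members called lower, where 1.64% of all genes tested were called lower and 4.06% were called in either direction, a call being an adjusted p under 0.05 in edgeR's quasi-likelihood test with Benjamini-Hochberg adjustment over all genes tested. Another 2 members, Dll1 and Dll4, had an unadjusted p under 0.05 that did not pass the adjustment. The median log2 fold change of the 10 members was 0.07, beside -0.03 over all genes.

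On the third day after CCl4 the same targets were lower than in healthy LSECs, and so was the ligand Dll1. These 3 members (Hes1, Hey1 and Dll1) fell, where 2.58% of all genes were called lower and 7.19% in either direction. The median log2 fold change of the members was -0.08, beside 0.18 over all genes, so a gene at the level of the median gene stood slightly above 0 in this comparison. By day 7 none of the 10 was called against healthy, beside 3.18% of all genes. At an unadjusted p under 0.05, 5 members differed at day 7 (Dll1, Dll4, Hes1, Heyl and Rbpj), and DESeq2 called 3 of them (Hes1, Heyl and Rbpj).

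**Figure D2:**
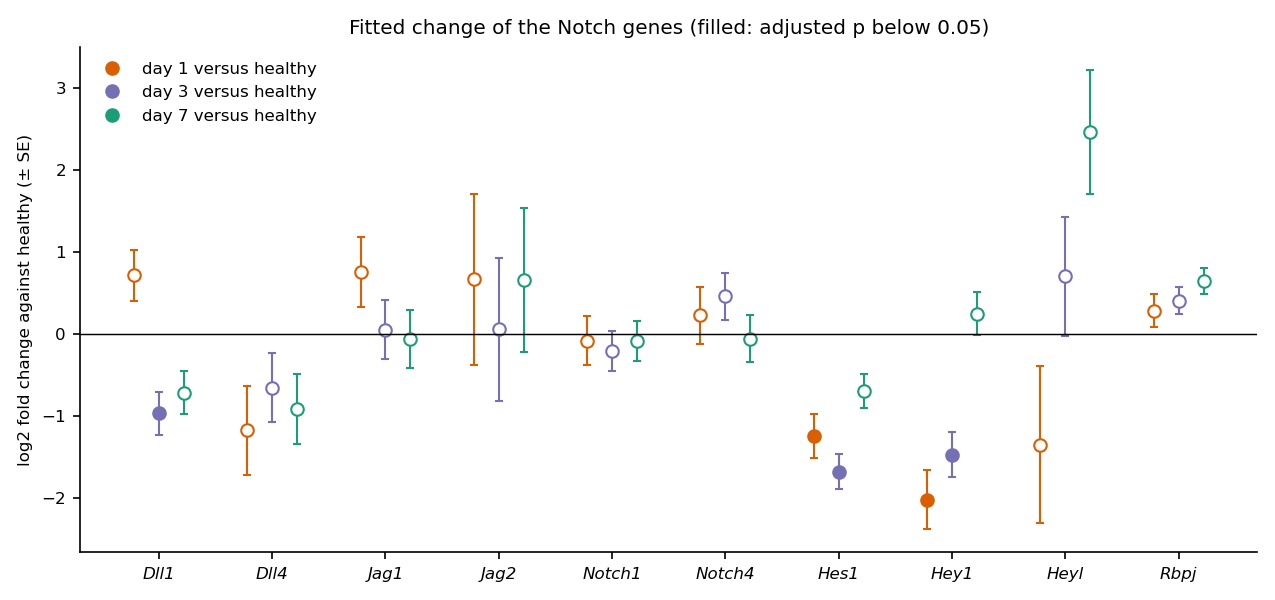
Log2 fold change against healthy LSECs (± SE, edgeR) of each Notch gene 1, 3 and 7 days after CCl4; filled points have an adjusted p under 0.05. Filled points are Hes1 and Hey1 at day 1 and Hes1, Hey1 and Dll1 at day 3, all below 0.

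Hes1 (16:30064384-30067796, plus strand) was lower in all injured libraries than in healthy LSECs. Its level was 512, 452, 457 and 430 CPM in healthy replicates 1 to 4, 158 and 232 CPM at day 1, 181, 134, 166 and 95.6 CPM at day 3 and 293, 327, 230 and 296 CPM at day 7. Every day 7 library was above every day 3 library, while day 7 replicate 3 lay just below day 1 replicate 2. The fall was 1.25 on the log2 scale at day 1 (SE 0.27, edgeR adjusted p = 0.0186), a level 2.38-fold lower, and 1.68 at day 3 (SE 0.21, adjusted p = 0.00134), 3.21-fold lower. The day 1 call rested on replicate 1 of that day, without which the log2 fold change was -1.03 with an adjusted p of 0.375. At day 7 Hes1 stood at -0.69 against healthy (SE 0.21, adjusted p = 0.0847), which missed the threshold although the libraries did not overlap.

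Summed over 11 immediate early and dissociation genes, the healthy libraries also stood above the rest, at 20620 to 23345 CPM against 12256 and 14292 CPM at day 1, 11548 to 15850 CPM at day 3 and 11520 to 16912 CPM at day 7. Of the 11 genes, 1 was called lower at day 1, 2 at day 3 and 1 at day 7. Over all genes, 4.06%, 7.19% and 3.18% were called in either direction. On each of these days 6 of the 11 had an unadjusted p under 0.05 (edgeR). The median log2 fold changes of the list were -0.76, -0.71 and -0.64, beside -0.03, 0.18 and 0.02 over all genes. Hes1 was likewise higher in every healthy library than in every injured one, so the comparison with healthy cannot tell the Hes1 difference from that of this list. Day 3 replicate 4, a library that stood apart with 22986 genes detected, had the lowest Hes1 level, 95.6 CPM, and a sum of 15850 CPM. The part of this list in the Hes1 values was not tested.

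Hey1 (3:8663359-8667256, minus strand), a target gene whose product represses transcription in arterial endothelium, was low at days 1 and 3, and at day 7 its libraries overlapped the healthy ones. It was at 5.89, 10.7, 10.2 and 5.54 CPM in the healthy libraries, at 2.19 and 1.77 CPM at day 1, at 3.18, 2.38, 3.25 and 2.80 CPM at day 3 and at 8.18, 11.2, 8.14 and 10.8 CPM at day 7. All 6 libraries of days 1 and 3 lay below all 8 of healthy and day 7, which overlapped each other. Hey1 fell by 2.03 on the log2 scale at day 1 (SE 0.36, adjusted p = 0.00662), a 4.07-fold lower level, and by 1.47 at day 3 (SE 0.27, adjusted p = 0.00734), 2.78-fold lower. The day 3 call held in all 21 alternatives, and the day 1 call was lost when either day 1 library was left out (adjusted p = 0.116 without replicate 1 and 0.102 without replicate 2), which leaves that group with 1 sample, assumed to vary like the other groups. At day 7 the log2 fold change against healthy was 0.25 (SE 0.26, adjusted p = 0.634).

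Heyl (4:123233556-123249875, plus strand), another Hey family target that is expressed in vascular mural cells, had a low level in every library. Its values were 0.499, 0.599, 0.926 and 0.755 CPM in healthy LSECs, 0.335 and 0.209 CPM at day 1, 0.290, 2.28, 1.34 and 0.626 CPM at day 3 and 0.301, 6.07, 4.21 and 4.79 CPM at day 7. Replicates 2 to 4 of day 7 were the highest of the series, and replicate 1 lay within the day 1 range. The log2 fold change at day 7 against healthy was 2.46 (SE 0.76, adjusted p = 0.0887), and it was 2.84 with an adjusted p of 0.0142 without day 7 replicate 1. Day 7 replicate 1 also had the lowest stellate marker sum of its group, 631 CPM against 1759 to 7768 CPM. Of the 15 stellate markers, 10 were called higher at day 3 and 11 at day 7 against healthy, and 0 at day 1. Over all genes, 7.19%, 3.18% and 4.06% were called in either direction at days 3, 7 and 1. Day 3 replicates 1 and 4, with sums of 2066 and 2800 CPM, had Heyl at 0.290 and 0.626 CPM. The part of stellate cell RNA in the Heyl level was not tested.

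**Figure D3:**
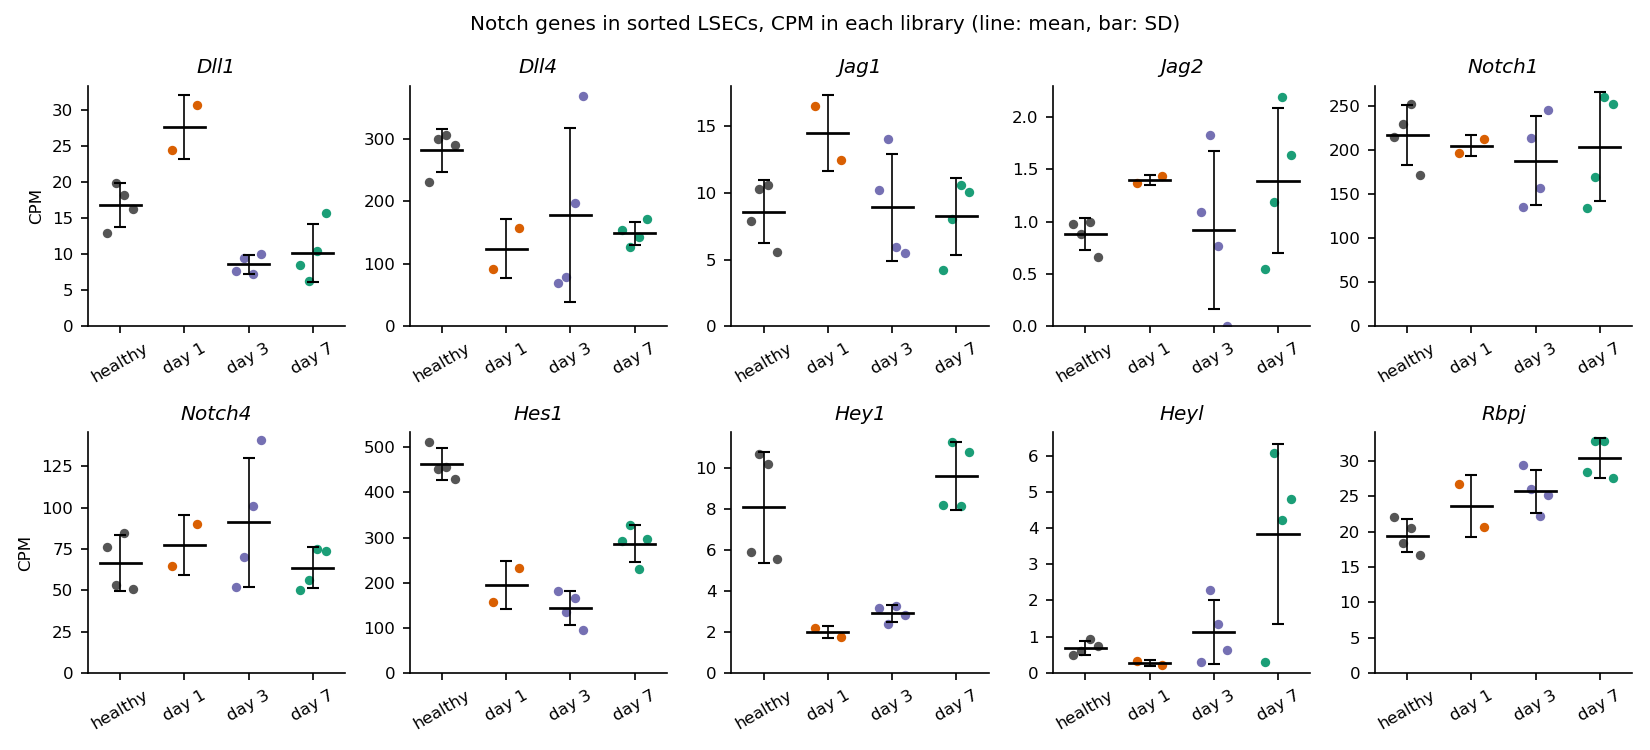
CPM of the 10 Notch genes in each library (points, by group), with the mean (line) and SD (bar) of healthy (n = 4), day 1 (n = 2), day 3 (n = 4) and day 7 (n = 4) LSECs; the vertical axes start at 0 and differ between genes. Hes1 and Hey1 were lower in all libraries of days 1 and 3 than in all healthy libraries, and the 4 Dll4 values of day 3 ran from 68.7 to 368 CPM.

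Dll4, a ligand known for restraining endothelial sprouting, was at 231, 300, 306 and 290 CPM in healthy LSECs and at 91.5 and 158 CPM at day 1. At day 3 it was at 68.7, 78.9, 198 and 368 CPM, and at day 7 at 155, 127, 144 and 171 CPM. All libraries of days 1 and 7 lay below the healthy ones, and day 3 ranged from the lowest to the highest value of the series. None of the differences from healthy passed the test: the log2 fold change was -1.18 at day 1 (SE 0.54, adjusted p = 0.276), -0.66 at day 3 (SE 0.42, adjusted p = 0.402) and -0.92 at day 7 (SE 0.42, adjusted p = 0.234). Fitted on the 2 groups alone, the day 1 and day 7 values passed (-1.22 and -0.92, adjusted p = 0.0358 and 0.0144). A single library decided the day 3 value, since without replicate 4 it was -1.35 with an adjusted p of 0.0286.

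Beside the monocyte and neutrophil marker sum, Dll4 gave a mixed picture. The 4 libraries with a sum above 2800 CPM (both of day 1 and day 3 replicates 1 and 2) had Dll4 at 68.7 to 158 CPM, and day 3 replicates 3 and 4, with sums of 154 and 103.6 CPM, had it at 198 and 368 CPM. At day 7, however, the sum was near that of the healthy libraries, at 202 to 348 CPM, and Dll4 was at 127 to 171 CPM. Of the 11 markers in that list, 5 were called higher at day 1, 4 at day 3 and 0 at day 7 against healthy. Over all genes, 4.06%, 7.19% and 3.18% were called in either direction on those days. The part of these cells in the Dll4 level was not tested. The exons of Dll4 also overlap those of the antisense gene Gm14207, which was at 25.7 to 48.0 CPM in healthy libraries, 2.62 and 10.3 CPM at day 1, 11.5 to 36.7 CPM at day 3 and 19.4 to 43.7 CPM at day 7. The sources used here do not state whether the counting used strand, so reads in the shared part may belong to either gene.

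**Figure D4:**
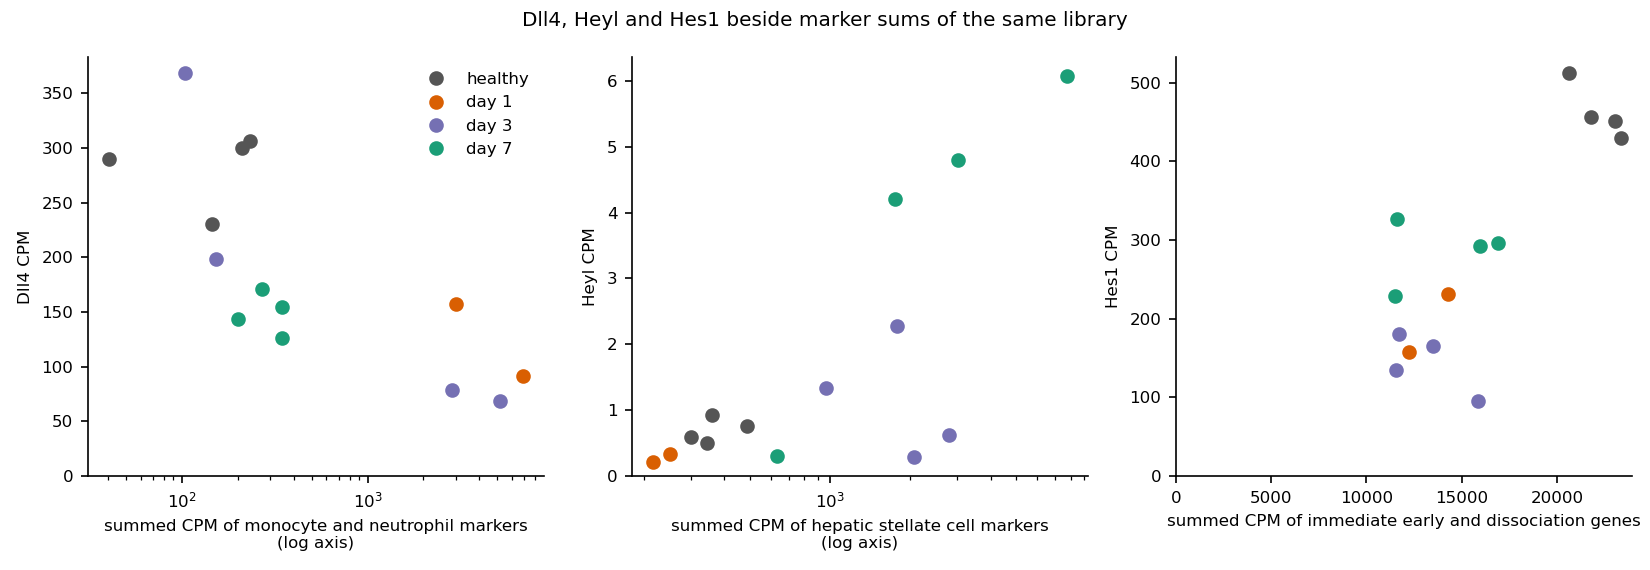
Level in CPM of Dll4, Heyl and Hes1 in each of the 14 libraries against the summed CPM of monocyte and neutrophil markers (log axis), hepatic stellate cell markers (log axis) and immediate early and dissociation genes, coloured by group. The lowest Dll4 values lie at marker sums above 2800 CPM, the 3 highest Heyl values are day 7 libraries, and the 4 healthy libraries stand apart in Hes1.

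Dll1, a ligand better known from somites and blood cell fate, was at 12.9, 19.9, 18.1 and 16.3 CPM in healthy LSECs, 24.4 and 30.7 CPM at day 1, 7.64, 9.42, 7.23 and 10.0 CPM at day 3 and 8.44, 6.32, 10.4 and 15.7 CPM at day 7. Both day 1 libraries were above, and all day 3 libraries below, the healthy range. At day 1, where the venous and arterial marker sums were also highest, the log2 fold change was 0.71 (SE 0.31, adjusted p = 0.251). Dll1 fell by 0.97 on the log2 scale at day 3 (SE 0.27, adjusted p = 0.0427), and the day 7 value was -0.72 (SE 0.26, adjusted p = 0.146). The day 3 call was close to the threshold and was lost in 9 of 21 alternatives: when any healthy library or any of day 3 replicates 1 to 3 was left out (log2 fold change -0.88 to -1.10, adjusted p = 0.0551 to 0.115), with scaling by library size alone and with the replicate block. Exons of the antisense gene A930024N18Rik overlap those of Dll1, but its level was 0.322 to 1.00 CPM.

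The Jagged ligands showed no called difference. Jag1, a ligand needed for bile duct formation, was at 16.5 and 12.5 CPM at day 1, above the 5.53 to 10.6 CPM of the healthy libraries. Its log2 fold change there was 0.75 (SE 0.43, adjusted p = 0.403). Day 3 (5.49 to 13.98 CPM) and day 7 (4.25 to 10.6 CPM) overlapped healthy. Jag2 was at 0.664 to 0.999 CPM in healthy LSECs, 1.36 and 1.43 CPM at day 1, 1.09, 1.82, 0.765 and 0 CPM at day 3 and 0.551 to 2.18 CPM at day 7. It had 0 counts in day 3 replicate 4, which allows up to 0.0318 CPM (3 counts) in that library. Its log2 fold changes carried standard errors of 0.88 to 1.05, so a log2 difference of 1 would have been about the size of its error.

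Neither receptor among the members was called in any comparison. Notch1 (2:26457903-26516663, minus strand), the main endothelial receptor, was at 172 to 253 CPM in healthy LSECs, 197 and 213 CPM at day 1, 136 to 246 CPM at day 3 and 134 to 260 CPM at day 7. Its group means lay between 188 and 217 CPM, and the log2 fold changes against healthy were -0.08, -0.21 and -0.09 at days 1, 3 and 7 (SE 0.30, 0.24 and 0.24, with adjusted p = 0.942, 0.670 and 0.871). Notch4 was at 50.6 to 84.8 CPM in healthy LSECs, 64.8 and 90.1 CPM at day 1, 52.0, 70.2, 101 and 141 CPM at day 3 and 49.9 to 74.8 CPM at day 7. The higher day 3 mean of 91.1 ± 38.9 CPM (SD, n = 4) came from replicates 3 and 4, and its log2 fold change of 0.46 (SE 0.29, adjusted p = 0.393) was -0.0022 when healthy replicate 4 and day 3 replicate 4 were left out.

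Rbpj (5:53466152-53657362, plus strand) was at 16.8 to 22.1 CPM in healthy LSECs, 26.8 and 20.6 CPM at day 1, 22.2 to 29.5 CPM at day 3 and 27.6 to 32.9 CPM at day 7. The day 3 and day 7 libraries all lay above the healthy ones. At day 7 the log2 fold change was 0.65 (SE 0.16, adjusted p = 0.0502), just over the threshold, and 9 of the 21 alternatives put it under, among them leaving out day 7 replicate 1 (adjusted p = 0.0370) or day 3 replicates 1, 2 or 4 (adjusted p = 0.0259 to 0.0455). Rbpj has processed copies in the genome, so reads may have been split between them. Of these, Rbpj-ps3 was at 4.43 to 8.32 CPM, with group means from 5.73 CPM in healthy LSECs to 6.61 CPM at day 1.

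The comparisons between injured groups asked which members differed along the time course. Dll1 was the member called between days 1 and 3, with a fall of 1.68 on the log2 scale (SE 0.31, adjusted p = 0.0145), a 3.21-fold lower level, where 0.969% of all genes were called lower and 2.54% in either direction. Between days 1 and 7, Dll1 fell by 1.43 (SE 0.31, adjusted p = 0.0151), while Hey1 rose by 2.27 (SE 0.36, adjusted p = 0.00298) and Heyl by 3.81 (SE 1.09, adjusted p = 0.0471). That is 2 members higher and 1 lower, beside 3.65% and 4.4% of all genes and 8.04% in either direction. Between days 3 and 7, Hes1 rose by 0.99 (SE 0.21, adjusted p = 0.0326) and Hey1 by 1.72 (SE 0.27, adjusted p = 0.0108), where 0.413% of all genes were called higher and 1.77% in either direction. These comparisons share their groups with those against healthy and add no independent evidence.

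Day 1 held 2 libraries, and every call between day 1 and a later day was lost when either was left out. The adjusted p was then 0.104 and 0.164 for Dll1 at day 3, 0.127 and 0.183 for Dll1 at day 7, 0.0678 and 0.0705 for Hey1 and 0.302 and 0.292 for Heyl, without replicate 1 and replicate 2 in turn. The Heyl call was also lost without healthy replicate 1, 2 or 3, day 3 replicate 3 or day 7 replicate 2, 3 or 4 (log2 fold change 3.50 to 3.85, adjusted p = 0.0591 to 0.0920). It was lost as well with no filter (3.72, adjusted p = 0.0611), with 2 groups only (3.83, 0.0518) and with the replicate block (2.88, 0.165). The call of Hes1 between days 3 and 7 was lost without healthy replicate 2 or 3, day 3 replicate 2 or any day 7 library (0.92 to 1.22, adjusted p = 0.0542 to 0.0996). That call was also lost with no filter, with 2 groups only and with the replicate block (adjusted p = 0.0569, 0.161 and 0.0646). With 2 groups only, the calls of Hey1 between days 3 and 7 and of Dll1 between days 1 and 3 were lost too (0.0796 and 0.0545).

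In the order of the group means, few neighbours differed by the test. Hey1 ran from day 7 (9.58 ± 1.66 CPM) over healthy (8.07 ± 2.73), day 3 (2.90 ± 0.401) and day 1 (1.98 ± 0.295 CPM), and the step from healthy to day 3 was the one that passed. Hes1 ran from healthy (463 ± 35.0 CPM) over day 7 (286 ± 41.1) and day 1 (195 ± 52.5) to day 3 (144 ± 37.7 CPM), and no neighbouring step passed. For the other 8 members no neighbouring step passed either, among them Dll1, which ran from day 1 (27.6 ± 4.42 CPM) over healthy (16.8 ± 3.00) and day 7 (10.2 ± 4.02) to day 3 (8.58 ± 1.35 CPM). All are mean ± SD with n = 4, and n = 2 at day 1.

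Of the other 57 genes listed for the pathway, 54 passed the filter (Dll3, Dlk2 and Hes2 did not). Against healthy, 1 was called at day 1, 4 at day 3 and 4 at day 7, beside 4.06%, 7.19% and 3.18% of all genes. Between days 1 and 3, 1 and 7 and 3 and 7 the counts were 1, 0 and 0, beside 2.54%, 8.04% and 1.77%. In the comparisons with none called, edgeR gave an unadjusted p under 0.05 for 5 and 6 of them, and DESeq2 called 3 and 1. Their median log2 fold change was -0.07, -0.09 and 0.05 at days 1, 3 and 7 against healthy, beside -0.03, 0.18 and 0.02 over all genes.

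Among the other receptors, Notch2 (3:98013527-98150361, plus strand) rose, while Notch3, a receptor of mural cells, was not called. Notch2 was at 6.53, 10.4, 10.7 and 6.55 CPM in healthy LSECs, 26.9 and 20.6 CPM at day 1, 29.5, 43.0, 13.5 and 21.2 CPM at day 3 and 11.3, 32.1, 26.0 and 30.2 CPM at day 7. All injured libraries were above all healthy ones. Its log2 fold change was 1.48 at day 1 (SE 0.44, adjusted p = 0.0793), 1.65 at day 3 (SE 0.38, adjusted p = 0.0200) and 1.55 at day 7 (SE 0.38, adjusted p = 0.0438). The day 3 call was lost without healthy replicate 1 or 4 or day 3 replicate 2 (adjusted p = 0.0516 to 0.0673), and the day 7 call without any healthy or day 1 library or day 7 replicates 2 to 4 (0.0546 to 0.14). The day 7 call of Notch2 was also lost with no filter and with the replicate block (edgeR adjusted p = 0.0702 and 0.0752). Per length Notch2 took 3.26% ± 0.682 of the summed RPKM of the 4 receptors in healthy LSECs, 6.81% and 10.2% in the day 1 libraries, 5.03% to 14.5% at day 3 and 6.28% to 13.3% at day 7, and Notch1 remained the largest at 63.0% ± 3.63 in healthy LSECs and 49.0% ± 4.26 at day 3. Notch3 was at 0.170 to 0.478 CPM in healthy LSECs and 3.31, 1.08 and 2.18 CPM in day 7 replicates 2 to 4, and had 0 counts in replicate 1, the day 7 library with the lowest stellate marker sum. Its log2 fold change at day 7 was 2.37 (SE 0.98, adjusted p = 0.189).

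Regulators of ligand and receptor turnover held the largest called changes of the 54. Dtx4, of the Deltex family of ubiquitin ligases, was at 1.16 to 3.43 CPM in healthy LSECs, 8.93 and 5.66 CPM at day 1, 8.99 to 14.7 CPM at day 3 and 7.73 to 18.2 CPM at day 7. It rose by 2.21 on the log2 scale at day 3 (SE 0.37, adjusted p = 0.00485) and by 2.14 at day 7 (SE 0.37, adjusted p = 0.0107), and both calls held in all 21 alternatives. Neurl1b, of the Neuralized family that acts on ligand endocytosis, was at 0.291 to 1.83 CPM in healthy LSECs and at 4.16, 2.19, 7.87 and 24.4 CPM at day 3, a rise of 3.10 (SE 0.74, adjusted p = 0.0235). Without day 3 replicate 4 that rise was 2.02, and the call was lost without healthy replicate 2 or 3 (adjusted p = 0.0730 and 0.0585). The call was lost as well with 2 groups only, with the replicate block and without both libraries that stood apart (adjusted p = 0.0813, 0.0613 and 0.0506). Of the 13 genes in this list, 2 were called higher at day 3 and 1 at day 7, and 0 lower, beside 7.19% and 3.18% of all genes called in either direction.

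Of the 5 glycosyltransferases that modify Notch receptors, Mfng fell by 0.84 at day 7 (SE 0.20, adjusted p = 0.0394), from 56.0 to 65.7 CPM in healthy LSECs to 31.8 to 40.5 CPM, a call that was lost without any of the libraries other than day 3 replicates 2 and 4 and day 7 replicate 1 (adjusted p = 0.0556 to 0.164). Of 9 nuclear corepressors, Hdac1, a histone deacetylase with many other partners, fell by 0.76 at day 3 (SE 0.19, adjusted p = 0.0276) and by 0.85 at day 7 (SE 0.19, adjusted p = 0.0293), calls that were lost without any healthy library, the first also without day 3 replicate 1 or 2 (adjusted p = 0.0567 to 0.0755) and the second without either day 1 library or day 7 replicates 2 to 4 (0.0687 to 0.139). A processed copy of Hdac1, Gm10093, had group means of 36.2 CPM in healthy LSECs and 24.2, 20.4 and 19.8 CPM at days 1, 3 and 7, so reads may have been divided between the copies. Of 10 proteases and secretase subunits that cleave Notch, Aph1b rose by 1.44 at day 1 (SE 0.34, adjusted p = 0.0315) and was 1.73 lower at day 3 than at day 1 on the log2 scale (-1.73, SE 0.34, adjusted p = 0.0188). It is uncertain because Aph1c is a close paralog, at group means of 5.70, 9.83, 11.6 and 21.3 CPM in healthy, day 1, day 3 and day 7 LSECs. Both Aph1b calls were lost without either day 1 library (adjusted p = 0.103 to 0.282), and the first also without any healthy library (0.0522 to 0.0738). Other settings removed calls too. The Mfng call was lost with library size only and with the replicate block (adjusted p = 0.122 and 0.0752). Both Hdac1 calls were lost with these settings (0.0858 and 0.0504 at day 3, 0.0961 and 0.0573 at day 7). The Hdac1 call at day 3 was lost as well without both libraries that stood apart (0.0575). Both Aph1b calls were lost with the block (0.151 and 0.0655), the first also with no filter (0.0529) and the second with 2 groups only (0.146). The 8 nuclear cofactors held no call.

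Targets outside the 10 members gave no call in any comparison. Nrarp, a target whose product feeds back on Notch, was at 43.8 to 59.0 CPM in healthy LSECs, 39.2 and 47.9 CPM at day 1, 27.5, 25.4, 96.9 and 119 CPM at day 3 and 18.9 to 37.1 CPM at day 7. At day 3 replicates 1 and 2 lay below and replicates 3 and 4 above the healthy range, whereas Hes1 was below its healthy range in all 4. All day 7 libraries were below the healthy ones, with a log2 fold change of -1.003 (SE 0.43, adjusted p = 0.20). Nrarp and Notch3 were named after their values were seen. Of the ligands outside the members, Dlk1 and Dner were tested and neither was called.

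**Figure D5:**
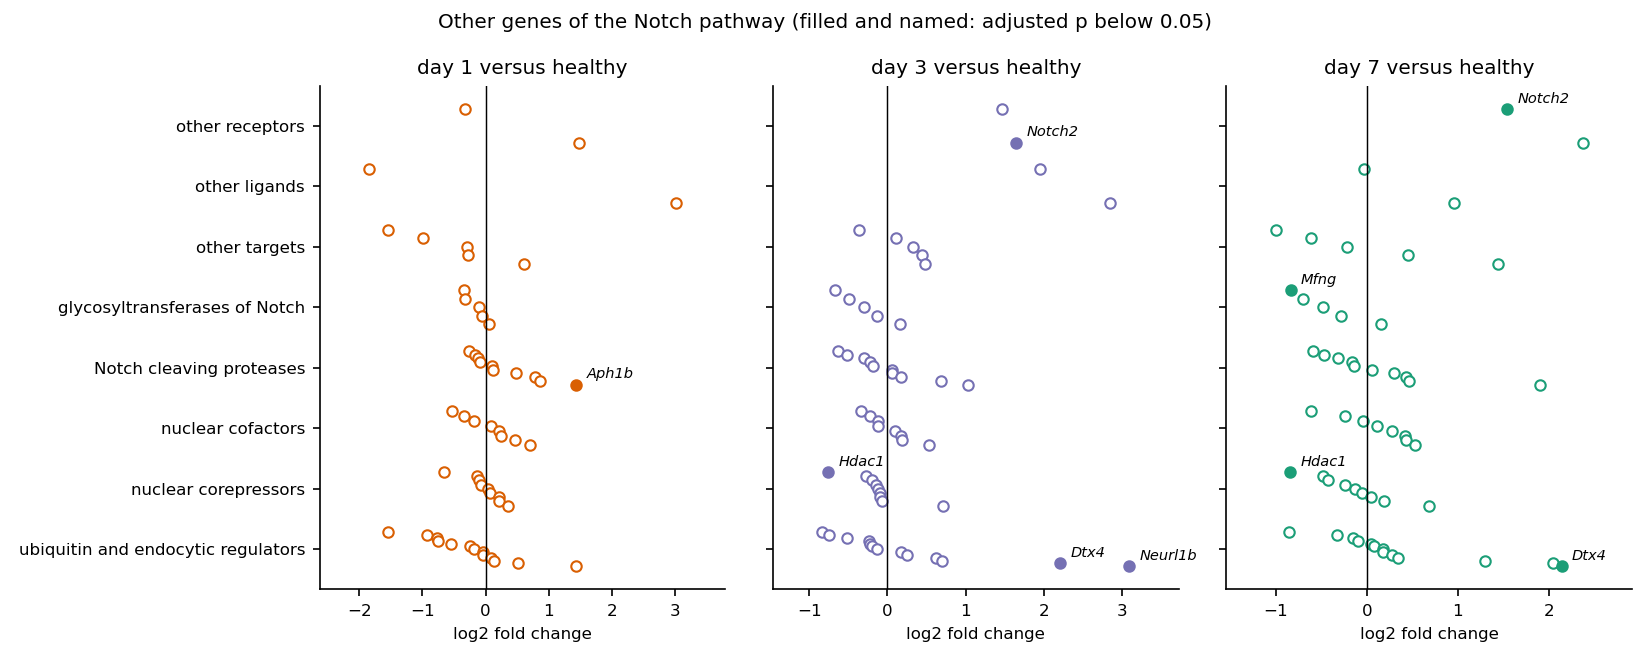
Log2 fold change against healthy LSECs of the 54 other Notch pathway genes tested, 1, 3 and 7 days after CCl4, by role; each point is a gene, and filled, named points have an adjusted p under 0.05. There was 1 such gene at day 1, 4 at day 3 and 4 at day 7, with Neurl1b the highest at a log2 fold change of 3.10.

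For the members called in any comparison, the genes with the most similar profile over the 14 libraries were ranked by Pearson's r of log2 CPM, as a description. The libraries share their groups, so a common difference between groups is enough to give a high r. Nearest to Hes1 were Bbs2 (r = 0.959), Olfr1396 (0.945) and Gramd1c (0.944). Nearest to Hey1 were Ctsf (0.924), Smad7 (0.904) and Fign (0.899). For Dll1 they were Tbc1d10a (0.921), Akap2 (0.916) and Col13a1 (0.910), and for Heyl Gm4468 (0.926), Rtl3 (0.904) and Gm16251 (0.900), of which Rtl3 and Gm16251 had group means under 0.5 CPM. None of these is a gene of the Notch lists.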

How the data were processed

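LSEC RNA was amplified with the SMARTseq v4 kit and sequenced in pairs; per the study's methods and the labels, the authors trimmed the reads, aligned them with STAR to GRCm38 and assembled them with StringTie. The deposited matrix holds raw counts per Ensembl gene; the step to whole counts, the annotation release and the use of strand are not given in the sources used here. The 10 members, the pathway and marker lists and the tests were chosen with earlier results of these data known. Named were all 10 members and each listed pathway gene called in any comparison.

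Genes were named with GENCODE vM21 (54495 of 54524 IDs). Counts were tested with edgeR 4.0.16 (R 4.3.3; glmQLFit and glmQLFTest): filterByExpr (minimum count 10, minimum total 15), TMM scaling, 1 model of the 4 group means over 14 libraries, with Benjamini-Hochberg adjustment over 26626 genes and a threshold of 0.05, two-sided. The study's methods name DESeq2, which was run as an alternative (1.42.0). The 4 groups share an estimate of the spread because day 1 has 2 samples. CPM used TMM-scaled library sizes, RPKM the union exon length, and the standard error is the log2 fold change over the root of F. Fold changes of low genes depend on the prior count. A floor of 3 counts was used for a gene not detected and covers counting error only. The fit was tested on simulated data, where most of the changes put in were left uncalled. A gene without a call may therefore still differ. There were 21 alternatives: DESeq2, RLE factors, library size only, no filter, 2 groups only, the replicate block, each of 14 libraries left out, and, chosen after seeing the data, both libraries that stood apart left out.

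The labels number the samples within each group; livers of different groups were taken at different times, so a shared number marks no shared animal.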

Additional observations from a re-analysis of the deposited data

Results flagged for a closer look

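A total of 6 differences between injured groups are listed here because the effect against healthy differed between days by the test of the difference itself (edgeR, adjusted over all genes). On the log2 scale, these were Dll1 at day 3 against day 1 (-1.68) and at day 7 against day 1 (-1.43), Hes1 at day 7 against day 3 (0.99), Hey1 at day 7 against day 1 (2.27) and against day 3 (1.72), and Heyl at day 7 against day 1 (3.81). Day 1 held 2 samples, and none of the 4 differences against it passed the test with either left out. In the 30 groups of 4 libraries (10 genes in healthy, day 3 and day 7), Dixon's test at the 95% level marked 0 libraries, where chance alone marks about 1 in 20 groups. A library that was not marked could still move a result. Day 7 replicate 1 had Heyl at 0.301 CPM against 4.21 to 6.07 CPM in the rest of its group. Without that library, the edgeR adjusted p of Heyl at day 7 against healthy went from 0.0887 to 0.0142.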

How the results depend on the processing

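Members called against healthy at day 3 were 2 to 4 in the alternatives (3 as reported). At day 1 the count of 2 became 3 with 2 groups only and 0 to 2 with a library left out. At day 7 the count of 0 became 3 with DESeq2, 1 with RLE factors, 1 with library size only, 3 with 2 groups only, 2 without the pair of libraries that stood apart, and 0 to 2 with a library left out. Between days 1 and 3 the count of 1 became 0 with 2 groups only and 0 to 1 with a library left out. Between days 1 and 7 the count of 3 became 2 without a filter, with 2 groups only and with the replicate block, and 0 to 3 with a library left out. Between days 3 and 7 the count of 2 became 1 without a filter, 0 with 2 groups only, 1 with the replicate block, and 1 to 2 with a library left out. The cause of these changes was not tested.

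The replicate block is a description only, since same-numbered samples did not deviate together: over 18 pairs the correlation of deviations from the group means was -0.232 to 0.0962, and 0 of 14 samples correlated best with their own number. Under the block, 594, 1385 and 435 of all genes were called against healthy at days 1, 3 and 7, in place of 1080, 1915 and 846. Over all alternatives these counts were 164 to 2745, 946 to 3633 and 193 to 3156, and those between days 1 and 3, 1 and 7 and 3 and 7 (676, 2142 and 472) were 49 to 2314, 146 to 4468 and 1 to 1692. For the other pathway genes the counts against healthy (1, 4 and 4) were 0 to 6, 2 to 10 and 1 to 10.

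The median log2 fold change of all genes moved by over 0.1 with library size only (0.12, day 7 against day 1), with 2 groups only (-0.19, day 3 against healthy) and with DESeq2 (0.12 at day 3 against healthy, 0.17 at day 3 against day 1, -0.11 at day 7 against day 3). It also moved by 0.12 at day 7 against day 3 without the pair of libraries, and by -0.16 (day 3 against healthy) to 0.14 (day 7 against day 3) with single libraries left out.

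Directions turned in members that were never called. Jag1 at day 3 was -0.14 without a filter, -0.048 with 2 groups only, -0.032 without the pair of libraries, and -0.25 to 0.17 with a library left out, and Jag1 at day 7 was 0.00046 with library size only and -0.21 to 0.15 with a library left out. Jag2 at day 3 was -0.13 without a filter, -0.054 with 2 groups only, -0.18 with the block, and -0.49 to 0.37 with a library left out. Notch1 was 0.056 at day 1 with the block and -0.20 to 0.058 at day 7 with a library left out. Notch4 was -0.051 to 0.42 at day 1 with a library left out, -0.0022 at day 3 without the pair of libraries, and at day 7 0.015 with library size only and -0.15 to 0.083 with a library left out.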
